A study of Homo sapiens with 6 samples.

Results

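The Notch genes described here are 10 of the 26485 gene symbols in the count files. They are the receptors NOTCH1, NOTCH2 and NOTCH3, the ligands JAG1 and JAG2, the DNA-binding factor RBPJ and the direct outputs HES1, HEY1, HES4 and NRARP. They were chosen by gene symbol around NOTCH3, which had itself been selected on its low counts with sgRNA #2 in the comparison reported here. Changes of these 10 genes are therefore given as a description, without p-values. RNA was sequenced from A549 cells, a human lung carcinoma line, in 3 libraries per group. Cells of both groups constitutively carried lentiviral dCas9-KRAB (a nuclease-dead Cas9 fused to a repressor domain, selected with puromycin) and rat Nkx2-1 (a lung transcription factor, driven by the PGK promoter and selected by sorting for GFP). One group was then transiently transfected with synthetic sgRNA #2, which targets the first intron of the surfactant gene SFTPB, and the other with a non-targeted sgRNA control.

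Notch signalling passes between touching cells. A Jagged or Delta ligand on the surface of a cell binds a Notch receptor on its neighbour, ADAM proteases and then gamma-secretase cut the receptor, and the freed intracellular part joins RBPJ and Mastermind proteins in the nucleus to switch on genes of the HES and HEY families. In the airway the pathway is known for favouring secretory over ciliated and neuroendocrine cells, and NOTCH3 is also the characteristic receptor of the mural cells of vessels.

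The libraries held 6047554 to 7584611 reads on genes, and the ranges of the groups overlapped. SFTPB, the targeted gene, was at 417 ± 9.92 CPM (a gene's reads per library size on the usual CPM scale, with sizes TMM-scaled, SD, n = 3) with the sgRNA control and at 6.72 ± 1.29 CPM (SD, n = 3) with sgRNA #2, and LAMP3, the lysosomal gene that also fell, at 16.3 ± 3.32 and 4.57 ± 2.14 CPM (SD, n = 3 each). The study's RNA-seq reported LAMP3 as weakly repressed, short of its adjusted p cut-off, while its qPCR counted LAMP3 as suppressed. In the edgeR fit given below, LAMP3 passed both cut-offs (log2 fold change -1.86, adjusted p = 0.00017). It also passed with DESeq2's Wald test (adjusted p = 7.76e-09), but its call was lost when DESeq2 tested for more than a 2-fold change. Of the epithelial markers, KRT8, KRT18 and EPCAM were present in every library, while KRT19 had 0 to 4 counts. On a CPM scale of total counts without TMM, the 4 endothelial markers summed to 0.631 to 1.13 CPM in the control libraries and 0.165 to 0.455 CPM in the sgRNA #2 libraries. These ranges did not overlap, but they rest on 0 to 5 counts per marker and library, with CDH5 at 0 counts throughout. The part of these markers in the results was not tested. The 4 mural markers summed to 11.5 to 14.3 and 9.92 to 12.9 CPM, with PDGFRB at 0 to 3 counts, the 3 fibroblast markers to 6.08 to 8.83 and 5.95 to 8.79 CPM, and the 3 blood markers, of which PTPRC and CD3E had 0 counts in every library and CD68 made up the sum, to 62.2 to 66.6 and 65.8 to 68.0 CPM. In such bulk libraries, fewer cells with a transcript and less of it per cell cannot be told apart.

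With sgRNA #2, NOTCH3 was lower by 5.73-fold, NOTCH1 was lower by 1.57-fold and JAG1 was higher by 1.40-fold, while NOTCH2, RBPJ and the outputs HES1, HEY1 and NRARP lay at overlapping levels in both groups. All 10 genes reached 10 counts in 3 or more libraries, as did 13356 genes in all, and entered the edgeR fit. At the cut-offs of the study (a log2 fold change of at least 1 in size and a Benjamini-Hochberg adjusted p under 0.05), 1 of the 10, NOTCH3, was called lower and 0 were called higher, where 0.689% of all tested genes were called lower and 0.0299% higher. The adjusted p here is from edgeR's test against no change. The study used DESeq2 and does not state the change it tested against, so its adjusted p may be of another kind. When DESeq2 tested for more than a 2-fold change, 21 genes were called over all genes, against 96 with edgeR, and NOTCH3 was still called. NOTCH3 at -2.52 lay well beyond the fold change cut-off, and the next member, NOTCH1 at -0.65, did not reach it. Over all genes, the called gene closest to that cut-off was PITPNM3 at -1.002, and the closest one left out by it was GABRA2 at -0.9915. With the fold change cut-off dropped, NOTCH3 and NOTCH1 were lower and JAG1 higher, against 2.22% of all tested genes lower and 0.464% higher. With the replicate number as a block, JAG2 joined them and 4 of the 10 passed, against 10.0% of all tested genes. In 5 of the 10, the groups had no overlap between libraries, against 15.6% of all tested genes. Since the members were chosen with this contrast known, nothing is read from these counts. The median log2 fold change of the 10 was -0.07, and that of all tested genes was 0.00.

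**Figure D1:**
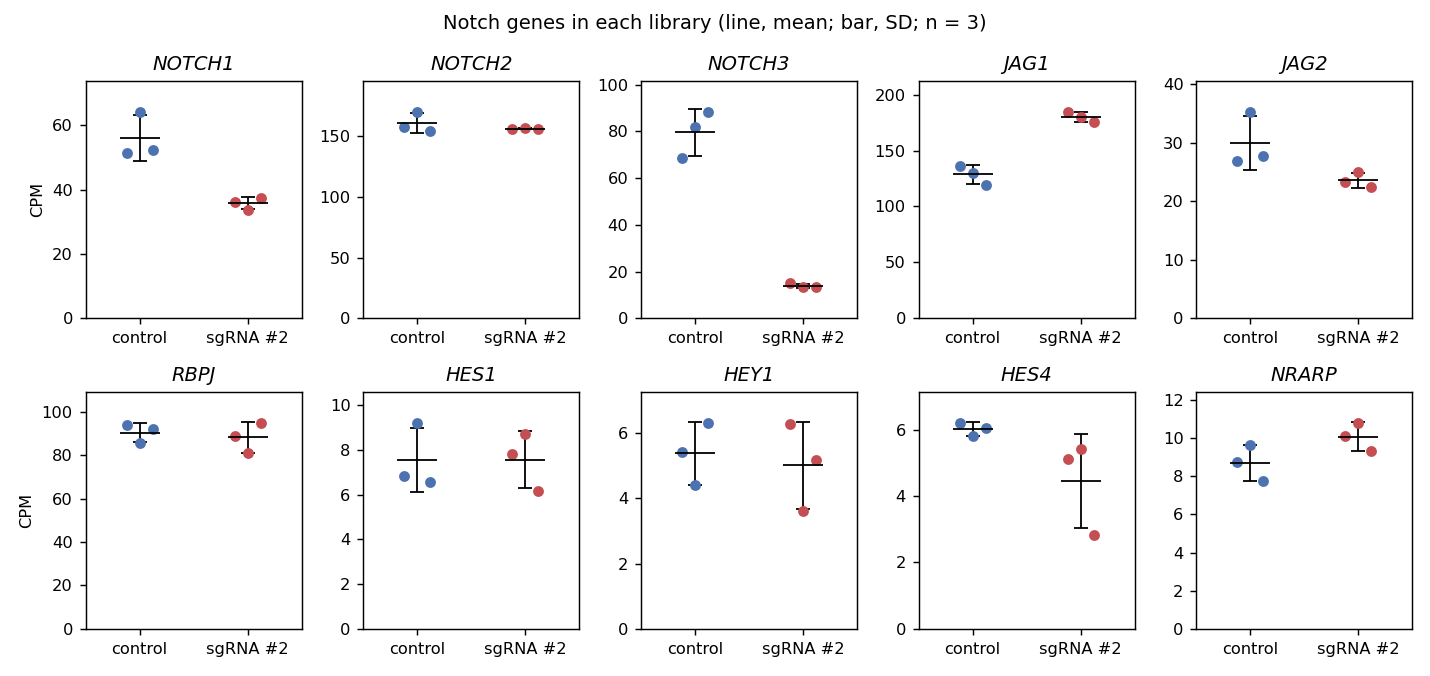
Each panel plots 1 Notch gene, with CPM on a linear axis from 0, a point for each library, a line at the mean and a bar for the SD (n = 3 per group). The 3 sgRNA #2 libraries lie below the controls for NOTCH3 (13.3 to 14.9 CPM against 68.5 to 88.4 CPM) and above them for JAG1.

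NOTCH3 (ENSG00000074181.9) lies on the minus strand of chromosome 19 of GRCh38, from 15159038 to 15200995, and its canonical transcript has 33 exons. Its reads numbered 430, 578 and 672 with the sgRNA control and 105, 89 and 80 with sgRNA #2. Scaled, the control libraries stood at 68.5, 81.9 and 88.4 CPM, and those with sgRNA #2 at 14.9, 13.4 and 13.3 CPM. All 3 sgRNA #2 libraries were low, and the lowest control library was still far above the highest of them. The means were 79.6 ± 10.1 and 13.9 ± 0.918 CPM (SD, n = 3 each). The log2 fold change was -2.52 (standard error 0.114, 95% interval -2.76 to -2.28), which left 17.4% of the control level. By the size of its change, NOTCH3 stood at rank 19 of the 13356 genes, and a high rank follows from its choice on low counts with sgRNA #2.

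NOTCH1 (ENSG00000148400.13, chromosome 9 from 136494433 to 136546048, minus strand) is a receptor of the same family. Its levels were 51.4, 64.2 and 52.5 CPM with the sgRNA control and 36.1, 33.8 and 37.5 CPM with sgRNA #2. The groups did not overlap, with control replicate 2 the highest. The log2 fold change was -0.65 (standard error 0.1, 95% interval -0.86 to -0.44). NOTCH2 (ENSG00000134250.21, chromosome 1 from 119911553 to 120100779, minus strand), the other receptor detected, had 157.3, 170.0 and 154.7 CPM in the controls and 155.6, 156.9 and 156.2 CPM with sgRNA #2. Its groups overlapped, and the log2 fold change of -0.04 had a 95% interval of -0.18 to 0.10. NOTCH2 has near-identical partial copies, of which NOTCH2NL is listed with 5 to 13 counts, so the counting could have split their reads. NOTCH4, the remaining receptor, had 2 to 7 counts and was too low to test.

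Among receptors, levels can be set side by side only per length. Per kilobase of annotated exon, NOTCH3 was at 8.46 ± 1.08 CPM, NOTCH2 at 9.60 ± 0.489 and NOTCH1 at 4.47 ± 0.565 in the control libraries (SD, n = 3 each). With sgRNA #2, NOTCH3 was at 1.48 ± 0.0976 CPM per kb, below NOTCH1 at 2.86 ± 0.149 (SD, n = 3 each). NOTCH2 was at 9.33 ± 0.0389 CPM per kb (SD, n = 3). Of the summed receptor level, NOTCH3 supplied 35.0, 36.2 and 41.1% with the sgRNA control, against 11.6, 10.5 and 10.3% with sgRNA #2. The share of NOTCH1 was 19.8 ± 1.47% and 20.9 ± 0.874% (SD, n = 3 each), with overlapping libraries. That of NOTCH2 was 40.5 to 45.2% in the control libraries and 67.5 to 69.5% with sgRNA #2. The summed level of the receptors was 22.5 ± 1.64 CPM per kb with the sgRNA control and 13.7 ± 0.15 with sgRNA #2 (SD, n = 3 each). A share of a sum moves when any of its parts moves, and the level of NOTCH2 itself differed little between the groups. These values depend on the length used. By canonical transcript length, the control means were 9.17 CPM per kb for NOTCH3, 14.1 for NOTCH2 and 5.86 for NOTCH1. The mean share of NOTCH3 was then 31.5% with the sgRNA control and 8.42% with sgRNA #2, and that of NOTCH2 was 48.4% and 71.9%.

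**Figure D2:**
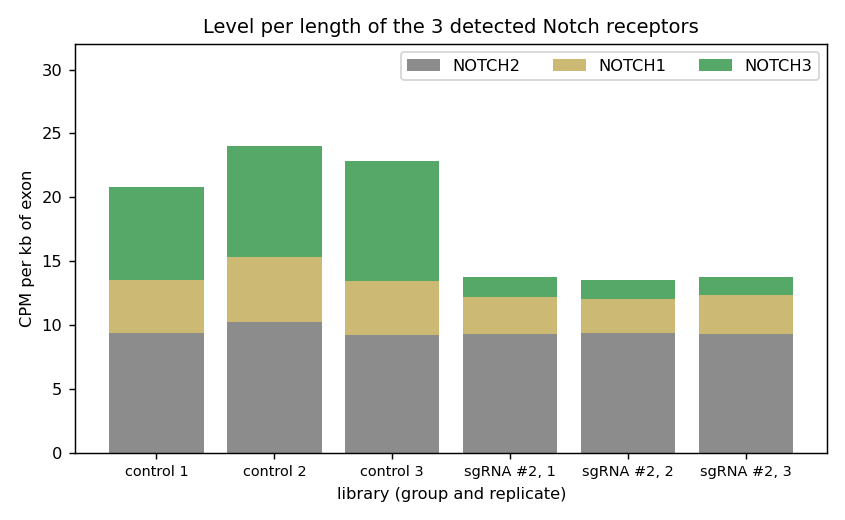
Stacked bars give the level of NOTCH2, NOTCH1 and NOTCH3 in CPM per kb of exon in each of the 6 libraries, on a linear axis from 0. The NOTCH3 segment is 7.28 to 9.39 CPM per kb in the control libraries and 1.42 to 1.59 in the sgRNA #2 libraries, while the NOTCH2 segments are of like height.

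The ligands moved in opposite directions. JAG1 (ENSG00000101384.12, chromosome 20 from 10637684 to 10673999, minus strand) encodes a membrane-bound Jagged ligand. It had 136.6, 129.8 and 119.5 CPM with the sgRNA control and 184.6, 180.1 and 175.2 CPM with sgRNA #2. Every sgRNA #2 library was above every control library, and the log2 fold change was 0.49 (standard error 0.0677, 95% interval 0.34 to 0.63). JAG2 (ENSG00000184916.9, chromosome 14 from 105140982 to 105168824, minus strand), the second Jagged ligand, had 26.9, 35.3 and 27.7 CPM with the sgRNA control and 23.3, 24.9 and 22.5 CPM with sgRNA #2. The ranges did not overlap but came close, and control replicate 2 stood highest. Its log2 fold change was -0.35 (standard error 0.119, 95% interval -0.60 to -0.10). It was -0.21 without control replicate 2. Per kilobase of exon, the ratio of JAG1 to JAG2 was 3.49, 2.54 and 2.97 with the sgRNA control and 5.45, 4.97 and 5.34 with sgRNA #2, again with no overlap. By canonical transcript length, the mean ratio was 4.23 with the sgRNA control and 7.43 with sgRNA #2.

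RBPJ (ENSG00000168214.22, chromosome 4 from 26163455 to 26435131, plus strand) is the factor through which the cut receptors reach DNA. It had 93.8, 85.5 and 91.9 CPM in the control libraries and 88.6, 80.8 and 94.95 CPM with sgRNA #2. The groups overlapped, and the 95% interval of the log2 fold change was -0.20 to 0.12.

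**Figure D3:**
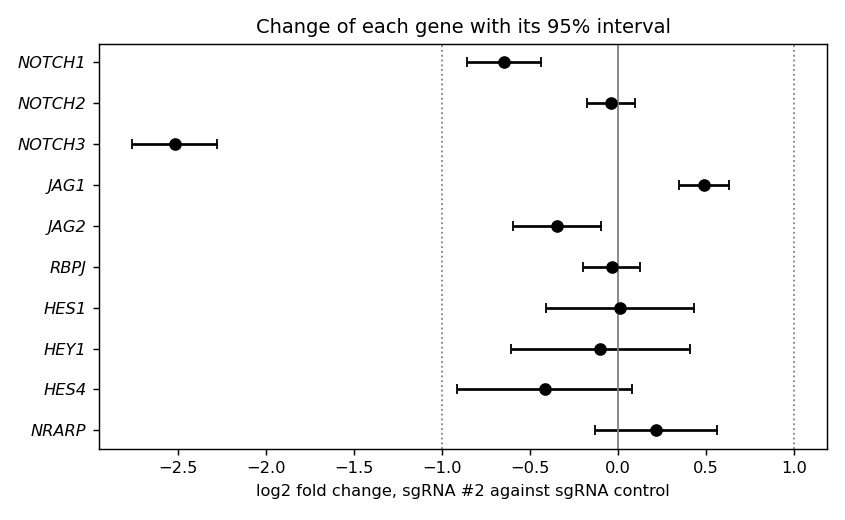
Points give the log2 fold change (sgRNA #2 against sgRNA control) of each of the 10 genes and bars its 95% interval from the edgeR fit, with dotted lines at the fold change cut-off. NOTCH3 at -2.52 is the only point beyond a dotted line, and the intervals of HES1, HEY1, HES4 and NRARP are the widest.

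The outputs were all low in these cells, with 17 to 72 counts per library, and their intervals were wide. HES1 (ENSG00000114315.4, chromosome 3 from 194136148 to 194138732, plus strand), a repressor of transcription that Notch induces in many tissues, had 6.85, 9.21 and 6.57 CPM with the sgRNA control and 7.82, 8.71 and 6.16 CPM with sgRNA #2. The groups overlapped fully, and the log2 fold change of 0.01 had a 95% interval of -0.41 to 0.43. HEY1 (ENSG00000164683.19, chromosome 8 from 79762371 to 79767857, minus strand), a related repressor, had 5.42, 4.39 and 6.31 CPM with the sgRNA control and 6.26, 3.61 and 5.16 CPM with sgRNA #2. Its log2 fold change was -0.10 (95% interval -0.61 to 0.41).

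NRARP (ENSG00000198435.4, chromosome 9 from 137299631 to 137302271, minus strand) encodes a small ankyrin repeat protein that feeds back on the Notch complex. It had 8.76, 9.64 and 7.76 CPM in the controls and 10.1, 10.8 and 9.33 CPM with sgRNA #2. The ranges overlapped slightly, and the log2 fold change was 0.21 (95% interval -0.13 to 0.56), and 0.13 without control replicate 3. HES4 (ENSG00000188290.11, chromosome 1 from 998962 to 1000172, minus strand), another HES repressor, had 6.21, 5.81 and 6.05 CPM with the sgRNA control and 5.12, 5.41 and 2.83 CPM with sgRNA #2. All 3 sgRNA #2 libraries lay below the controls, but replicate 3, with 17 counts, stood apart from the other two. The log2 fold change was -0.42 (standard error 0.236, 95% interval -0.91 to 0.08), and -0.19 without sgRNA #2 replicate 3. Of the 4 output intervals, that of HES4 alone holds a fall as large as the one of NOTCH1, and the lower bounds of the other 3 lie above -0.65.

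Sequence before the start sites was read for RBPJ letters, because RBPJ is the step between receptor and output. The core TGGGAA was searched on both strands (TTCCCA on the other) in the 250 bases before the RefSeq start of each gene on GRCh38.p14. It occurs in 21.1% of 27305 such promoters, and the longer GTGGGAA, which contains the core, in 5.46%. Of the members, 9 matched the promoter table. The core was found in the windows of HES1, with 2 copies, and HES4, with 1 copy, and in 0 of the other 7. HEYL, a HEY factor outside the 10, held 2 copies. A match is a run of letters, not a measured binding site. The HES1 and NOTCH3 windows are shown whole, and HES4 by 30 bases, each in the direction of the gene, with the core in capitals:

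HES1, chr3:194135898-194136147, plus strand: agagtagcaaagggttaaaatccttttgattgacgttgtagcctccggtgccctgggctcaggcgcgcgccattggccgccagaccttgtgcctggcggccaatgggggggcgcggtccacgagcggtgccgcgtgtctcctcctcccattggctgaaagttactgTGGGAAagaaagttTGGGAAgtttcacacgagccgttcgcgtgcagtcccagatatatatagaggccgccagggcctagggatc

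HES4, chr1:1000156-1000185, minus strand: ctggggcgagtgTGGGAAagaatgcggagc

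NOTCH3, chr19:15200996-15201245, minus strand: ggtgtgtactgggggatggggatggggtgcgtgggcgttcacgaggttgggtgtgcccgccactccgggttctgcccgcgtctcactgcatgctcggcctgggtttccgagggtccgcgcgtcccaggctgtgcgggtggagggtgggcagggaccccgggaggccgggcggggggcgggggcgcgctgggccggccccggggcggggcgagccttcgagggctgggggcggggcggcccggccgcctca

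The HES1 copies begin at -84 and -70 from the start, both on the gene's strand, and that of HES4 at -76. The 30 bases of HES4 span the start that GENCODE gives for this gene, so part of them may be transcribed. Neither gene was called. The NOTCH3 window has no capitals, as these letters are not in it, and consists of G or C at 78.0% of its bases, where the median promoter has 58.0%.

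The target of sgRNA #2 was compared with the sequence around the start of each tested gene, to describe how the members stand to the guide. The study itself searched for off-targets of this guide with CRISPOR and reported no match at the LAMP3 locus. That search is not repeated here, and the measure below is a different one. The target matched GRCh38 exactly at 1 site, in SFTPB on chromosome 2. For 13077 tested genes with an annotated start, the longest run of PAM-proximal bases shared with the guide before an NGG was taken within 1000 bp of any start site, on both strands. At NOTCH3 this run was 6 bases, with 10 mismatches in the whole protospacer, at 127 bp from a start site inside the gene. Of the genes searched, 24.0% had a run of 6 or more. BOK, a called gene, is shown as an example of a long run and was picked after its values were seen. Its run was 11 bases, which 0.0688% of the genes reached. FDFT1, named below among the genes most like NOTCH3, was also picked by hand to be shown, and does not stand for those genes. Its run was 10 bases, which 0.214% reached. The runs of the other genes most like NOTCH3 and of the called genes as a set are not given here. Whether the guide acted at any of these genes was not tested. The other members had runs of 3 to 7 bases, with 7 at JAG2 and 6 at NOTCH1, NOTCH2 and JAG1. Genes with more start sites had more sequence searched, and binding of dCas9-KRAB was not measured. The sites are given in the direction of the guide, with the shared run and the PAM in capitals, and in the target the PAM alone:

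sgRNA #2 target, chr2:85668529-85668551, minus strand: gggatgggaggggaacacccAGG

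NOTCH3 site, chr19:15179082-15179104, minus strand: ctgccacgcggcacACACCCGGG

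BOK site, chr2:241558537-241558559, plus strand: atggaccccGGGGAACACCCAGG

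Beyond the 10 genes, 67 further genes of the pathway were listed by role, and 56 of them were tested. At both cut-offs, 0 were called by edgeR and 0 by DESeq2's Wald test. An unadjusted p under 0.05 was seen in 6 of them. The share of all tested genes at that p is not given here, so nothing is read from the 6. Of all tested genes, edgeR called 0.689% lower and 0.0299% higher. The log2 fold changes of the 56 ran from -0.70 to 0.72 with a median of -0.02. With the fold change cut-off dropped, 2 of the 56 (3.57%) were lower and 0 higher, where 2.22% of all tested genes were lower. With the replicate block, 8 passed (14.3%), 6 of them lower, where 10.0% of all tested genes passed. Groups did not overlap in 8 of the 56 (14.3%), where the share over all tested genes was 15.6%. These shares lie near those over all genes.

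NEURL1B, a ubiquitin ligase of the Neuralized family that promotes ligand uptake, fell. It had 21.2, 27.5 and 22.2 CPM with the sgRNA control and 11.5, 17.9 and 14.3 CPM with sgRNA #2. The groups did not overlap, and its change on the log2 scale was -0.70, with an SE of 0.154 and a Benjamini-Hochberg adjusted p of 0.0154 (edgeR). The adjusted p was 0.105 without control replicate 2 and 0.12 without sgRNA #2 replicate 1. LFNG, the Lunatic Fringe glycosyltransferase that modifies Notch receptors, also fell, from 51.3, 57.8 and 65.7 CPM to 35.1, 43.9 and 49.5 CPM. Its change on the log2 scale was -0.45, with an SE of 0.116 and an adjusted p of 0.0436 (edgeR). LFNG did not reach the fold change cut-off, and its adjusted p rose above 0.05 when any 1 of 4 libraries was left out. The adjusted p from edgeR was 0.0973 without control replicate 2, 0.209 without control replicate 3, 0.278 without sgRNA #2 replicate 1 and 0.0965 without sgRNA #2 replicate 2. It was also above 0.05 when only total counts were used (adjusted p = 0.0505 from edgeR).

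The proteins that cut the receptor showed 0 of 8 past an adjusted p of 0.05, from -0.21 to 0.10 on the log2 scale. At that adjusted p from edgeR, 2.22% of all tested genes were lower and 0.464% higher, so 0 of 8 lies near that share. ADAM10, the protease of the first cut, was at 264 ± 15.3 and 259 ± 14.1 CPM (SD, n = 3 each), with a 95% interval of its log2 fold change of -0.17 to 0.12. POFUT1, which adds fucose to the receptors, was at 249 ± 8.63 and 251 ± 14.4 CPM (SD, n = 3 each). MIB1, the ubiquitin ligase that drives uptake of ligands, was at 108 ± 5.55 and 109 ± 4.93 CPM, and DTX3L, of the Deltex family, at 164 ± 4.54 and 161 ± 4.41 CPM (SD, n = 3 each). For the non-canonical ligand DLK2 the values were 8.76 ± 1.27 and 11.7 ± 2.92 CPM (SD, n = 3 each), with overlapping groups and an adjusted p of 0.421 (edgeR).

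Without the block, 0 of 7 coactivators and 0 of 12 corepressors passed, where 2.22% of all tested genes passed lower and 0.464% higher. With so few genes, these counts lie near that share. CREBBP, an acetyltransferase, had the highest mean CPM of the coactivators, not scaled by length. It was at 134 ± 7.56 and 136 ± 6.84 CPM (SD, n = 3 each). MAML3, a Mastermind coactivator, had a log2 fold change of 0.23 and HDAC1, a histone deacetylase, one of -0.22, both with the block. Their adjusted p from edgeR was 0.272 and 0.269 without the block and 0.0244 and 0.0184 with it.

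Of the 4 other tested HES and HEY factors, 0 passed, where 2.22% of all tested genes passed lower and 0.464% higher. The highest of the 4 in CPM, HES7, was at 17.8 ± 1.94 and 19.5 ± 3.53 CPM (SD, n = 3 each). Per kilobase of exon, HES7 stood at 9.49 ± 1.03 CPM in the control libraries, above HES1 at 3.66 ± 0.704 (SD, n = 3 each). MYC, CCND1, SOX9 and SNAI2, reported outputs in other cells, lay between -0.13 and 0.21 on the log2 scale, and 0 passed without the block. CCND1, the cyclin gene and the highest of them in CPM, had 1118, 1041 and 863.7 CPM in the controls and 1007, 935.5 and 826.0 CPM with sgRNA #2, which overlapped. With the block, the log2 fold change was 0.13 for MYC (adjusted p = 0.0398, edgeR), -0.12 for CCND1 (adjusted p = 0.0356) and -0.22 for DTX4, a Deltex family ligase (adjusted p = 0.0271). Without it, their adjusted p was 0.564, 0.693 and 0.713. The 11 pathway genes not tested, among them the ligands DLL1 and DLL4, had 0 to 16 counts per library, and 2 of them had 0 in every library.

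**Figure D4:**
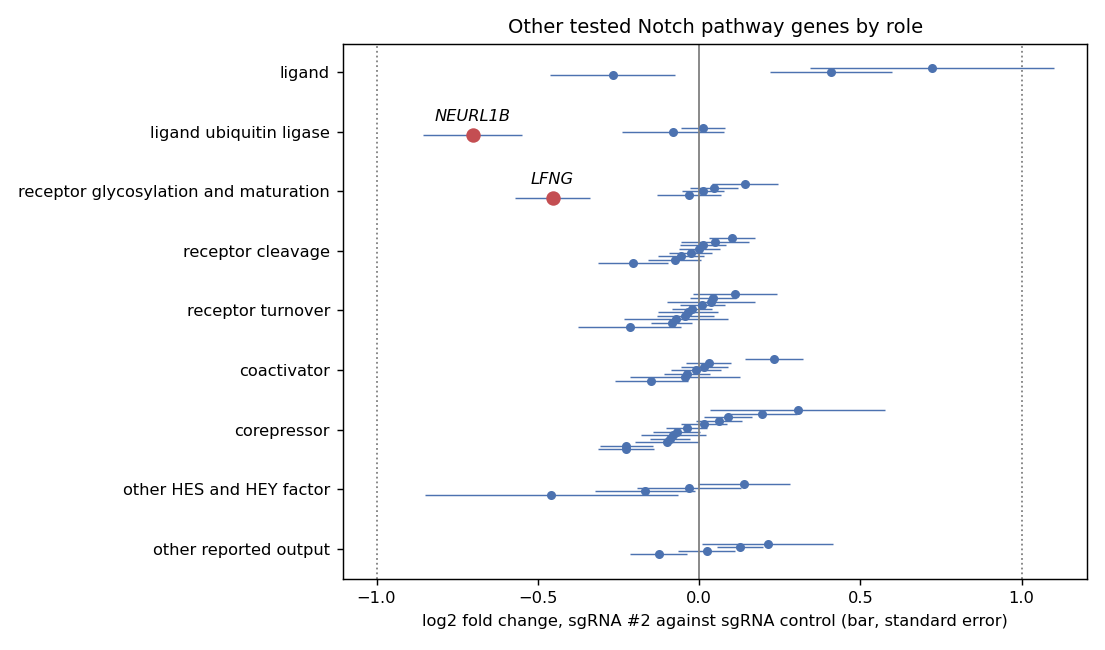
Points give the log2 fold change of the 56 other tested pathway genes by role, with bars for the standard error and dotted lines at the fold change cut-off. NEURL1B at -0.70 and LFNG at -0.45 are the 2 red points, past an adjusted p of 0.05, and 0 points lie beyond a dotted line.

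Of 15 markers of the airway cell fates that Notch balances, 5 had enough counts to test. At both cut-offs edgeR called 1 of the 5, where it called 0.689% of all tested genes lower and 0.0299% higher. MUC5AC, a gel-forming mucin of secretory cells, was called lower, with 8.60, 21.3 and 15.4 CPM in the controls and 5.12, 6.91 and 5.66 CPM with sgRNA #2. The control libraries were widely spread, yet all lay above the sgRNA #2 libraries. Its change on the log2 scale was -1.37, with an SE of 0.259 and an adjusted p of 0.00522 (edgeR). It was -1.04 without control replicate 2, and the call was lost when DESeq2 tested for more than a 2-fold change (adjusted p = 1.0). SPDEF, MCIDAS, CCNO and TP63 lay between 0.00 and 0.24 on the log2 scale, and 0 of these passed. The 10 markers not tested, the club cell gene SCGB1A1 and all 4 neuroendocrine genes included, had 0 to 8 counts per library.

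Genes next to NOTCH3 were examined by position, which the choice of members had not used. Within 500 kb of its start, 9 other genes were tested. Of all tested genes, edgeR called 0.689% lower and 0.0299% higher. Of the 9, 0 were called by edgeR or by DESeq2's Wald test, which lies near that share. The nearest was ILVBL at 75.2 kb, with a log2 fold change of -0.24 (standard error 0.125) and an adjusted p of 0.506 from edgeR. One of the 9, the cytochrome gene CYP4F3 at 440 kb, had an unadjusted p under 0.05, for which the share of all tested genes is not given here. The log2 fold change of CYP4F3 was -0.55 (adjusted p = 0.0741 from edgeR, and 0.000711 with the replicate block). The median over the 9 was -0.15 on the log2 scale, against 0.00 over all tested genes. It depended on the window, with -0.05 over the 6 genes within 250 kb and -0.09 over the 24 within 1000 kb.

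**Figure D5:**
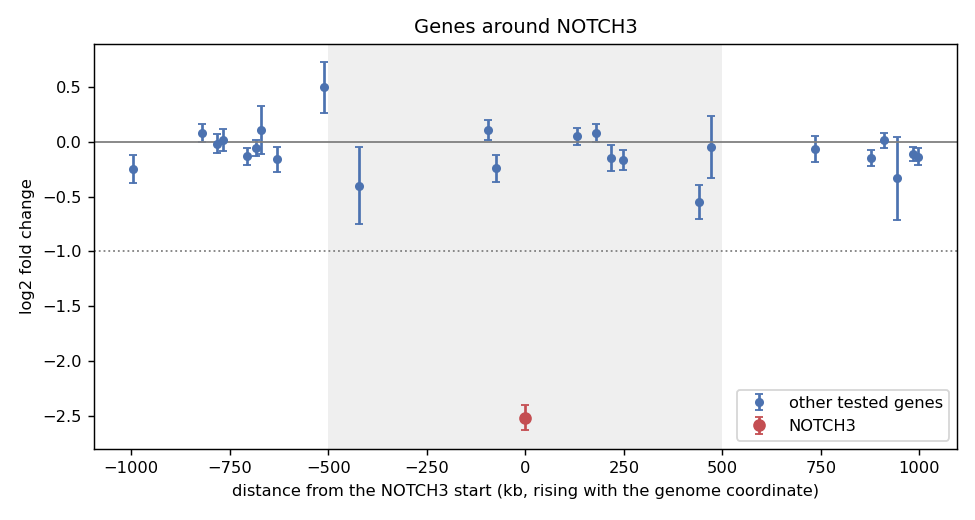
The x axis gives the distance of each tested gene's start from that of NOTCH3 (kb, rising with the genome coordinate), the y axis the log2 fold change with its standard error, and the shaded band 500 kb to each side. NOTCH3 at -2.52 lies alone below the dotted cut-off line, and the 24 other genes within 1000 kb lie between -0.55 and 0.50.

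The genes most like NOTCH3 over the 6 libraries were GDF5, ZSCAN18, LGALS1, FDFT1 and BTC, by the Euclidean distance between log2 CPM values centred on each gene's mean. Their distances were 0.269, 0.395, 0.442, 0.445 and 0.50, where the median over the 13355 other genes was 3.08. Since they were chosen by likeness to a gene picked for its low counts with sgRNA #2, their small distances and their direction follow from the choice. Their log2 fold changes ran from -3.57 to -2.22, and they lie on 5 chromosomes, of which ZSCAN18 alone shares that of NOTCH3. GDF5 and BTC had few counts, at 1.99 ± 0.21 and 3.88 ± 0.719 CPM with the sgRNA control and 0.153 ± 0.0124 and 0.459 ± 0.0372 CPM with sgRNA #2 (SD, n = 3 each), so their fold changes depend on the prior count of the fit. NOTCH1 came at rank 234, at a distance of 2.29.

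In the annotation, small RNA genes lie within NOTCH3, NOTCH1, JAG1 and JAG2 on the same strand, a longer noncoding gene also overlaps JAG2 on its strand, and antisense genes overlap NOTCH1, NOTCH2, JAG1 and NRARP. Reads of a gene and its antisense partner cannot be told apart here, as the strand setting is not given. HES1, HES4, HEY1 and RBPJ overlap no other annotated gene.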

How the data were processed

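Total RNA of 6 A549 libraries was analysed, 3 per group, grouped by the sample titles. Raw counts by gene symbol, made by the authors with htseq-count on hg38, were the deposited values. Per the labels, Trim Galore, FastQC, Bowtie2 2.3.3.1, SAMtools and Picard were also used. The annotation and strand setting are not given in the sources used here. Reads in no gene or in several took 22.4 to 23.8% of the counted reads and were left out.

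Counts were tested across all genes in R 4.3.3 with edgeR 4.0.16 (TMM, quasi-likelihood test, Benjamini-Hochberg) on the 13356 genes that reached 10 counts in 3 or more libraries, and the code was tested on simulated data. The standard error is the log2 fold change divided by the square root of F. Intervals use 17 degrees of freedom. DESeq2 1.42.0, other scalings and filters, the replicate block and leaving out each library were alternatives. Same-numbered libraries deviated together (correlations of 0.269 to 0.291), and the block took the numbers of the labels as pairing the samples. Libraries of unlike number were not compared, so the pairing itself was not tested. The main fit had no replicate term. Its standard errors, intervals and p-values, given wherever the block is not named, leave any pairing out. The prior degrees of freedom came out infinite in the blocked fit, so its p-values rest on the trended dispersion alone.

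Positions and exon lengths are from GENCODE release 44 (24545 symbols matched), promoters from RefSeq on GRCh38.p14, and the guide from the study's supplement. Members and lists were chosen with earlier results of these data known. Named were the members, listed genes with an adjusted p under 0.05, the 6 listed genes with the smallest p and the gene of each role with the highest mean CPM. Close neighbours of NOTCH3 and the 5 genes nearest to it in pattern were also named. Some genes that this rule names are not reported here. BOK, HEYL and the genes passing only with the block were named after their values were seen. The study states biologically independent triplicates.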

Additional observations from a re-analysis of the deposited data

How the results depend on the processing

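NOTCH3 was called in all 15 alternatives, with log2 fold changes of -2.61 to -2.44, as was SFTPB, at -6.12 to -5.85. Of 150 values of the 10 members, 137 kept direction and side of the cut-offs. The call count over all genes was 96, and 21 when DESeq2 tested for more than a 2-fold change, 63 with 10 counts required in every library, 359 with no fold change cut-off, 1339 with the block and no such cut-off (chosen after seeing the data), and 65 to 94 without each library. With no fold change cut-off, 3 members, 2 other pathway genes and 0 neighbours of NOTCH3 passed, and with the block added 4, 8 and 1. Of the airway markers, 1 was called, and 0 in the DESeq2 test above 2-fold. With the block and both cut-offs, 122 genes were called and the counts of members, other pathway genes, airway markers and neighbours stayed the same. Without the fold change cut-off, the epithelial marker KRT8 also passed with the block alone (adjusted p = 0.0235 from edgeR). Windows of 250 and 1000 kb around NOTCH3 held 0 called genes. Members near 0 reversed without single libraries. NOTCH2 was at 0.0032 without control replicate 2 (lowest -0.0686), RBPJ at 0.021 without sgRNA #2 replicate 2 (lowest -0.0925), HES1 from -0.10 to 0.18 and HEY1 from -0.301 to 0.091. The causes of these reversals were not tested. With canonical transcript lengths in place of exon unions, NOTCH3 was at 9.17 against 8.46 CPM per kb in the controls, RBPJ at 16.8 against 5.90 and HEY1 at 2.45 against 0.979, so orders between members depend on the length. Counts of 17 to 72 limit the outputs.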
